A study of Mus musculus with 31 samples.

Results

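The genes described here build the extracellular matrix of the lung: collagens, elastin and its microfibril partners, the lysyl oxidases that cross-link them, small leucine-rich proteoglycans, and adhesive or matricellular glycoproteins. They come from a list of 37 gene symbols, and each was read from a probe set that carries that 1 symbol in the array's annotation, the probe set with the highest mean where a gene has several. Of the 37 genes, 35 had such a probe set, 1 each, among 19938 named genes. All 35 passed the filter on low values that left 14705 genes for testing. Fbn1, the main fibrillin of elastic microfibrils, and Loxl2, a lysyl oxidase, had no probe set of 1 symbol and have no value here.

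The lung matrix has a fibrillar part and a sheet-like part. Collagens I, III and V form the tension-bearing fibrils of airways, vessels and septa, collagen VI forms beaded filaments at the surface of mesenchymal cells, and collagen IV is the network of the basement membranes under epithelium and endothelium. Elastic fibres, an elastin core on a microfibril scaffold with fibulins at the interface, give the lung its recoil, and lysyl oxidases make the covalent links in both collagen and elastin. Tenascin-C and thrombospondin-1 are matricellular proteins, known for transient expression in injured or inflamed tissue, and fibronectin is the adhesive glycoprotein of provisional matrix.

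The study measured RNA from whole lungs of male mice of 2 strains, AKR and C57 BL/6, on 31 Affymetrix mouse gene arrays, to compare how the strains respond to cigarette smoke and to bacterial lipopolysaccharide (LPS), an agonist of innate immunity. In 8 groups, mice of each strain breathed room air or smoke and then received normal saline alone or LPS in normal saline into the trachea. There were 3 arrays in each of these groups, except for AKR smoke LPS with 2. In 3 further groups, mice breathed room air and were not instilled: C57 for 6 wk (3 arrays), AKR for 6 wk (3 arrays) and AKR for 3 wk (2 arrays). Every mouse carries an age label of 6 wk, with nothing on when that age was taken. The titles give 3 wk of exposure to the instilled mice, while the description of the series gives 6 wk to them, so the exposure time is uncertain. Smoke-exposed lungs without instillation are not analysed here. Groups are named below by strain, exposure and instillation, and the replicates are titled biological replicates. In whole lung, fewer cells of a type and less RNA per cell cannot be told apart.

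Values are log2 intensities of a probe set, so they compare arrays for 1 gene and not 1 gene with another. The arrays fell into 2 sets by their distributions, 18 with medians from 6.96 to 7.10 and 13 with medians from 6.80 to 6.90. The larger set held all C57 arrays and the AKR arrays of 6 wk in room air, and the smaller one the other AKR arrays. Levels were therefore not compared between the sets, and strains were compared only in 6 wk of room air and as differences between responses. Both C57 arrays numbered 3 after smoke went against their labels in genes that LPS induces. The acute-phase gene Saa3 stood at 12.47 on the array labelled C57 smoke saline 3 and at 6.06 on the array labelled C57 smoke LPS 3, against 5.98 to 6.09 in C57 air saline and 12.38 to 12.84 in C57 air LPS. Results below use all arrays as labelled, and the values without both doubted arrays are given beside them where a call differs. AKR air saline 3 had Saa3 at 8.95, against 6.22 and 6.38 on the other arrays of its group, and AKR smoke saline had 8.09 to 8.65. The lung epithelial genes Sftpc and Ager were high on every array, from 12.99 to 13.83 and from 11.49 to 12.71.

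Differences were tested with limma over all 14705 genes, and a gene passed at a Benjamini-Hochberg adjusted p under 0.05. Only such a gene is said to have risen or fallen. Errors after ± are standard errors of the log2 change from that fit, and the groups have 2 or 3 arrays as above. Matrix genes passed in both strains with LPS. After air, 7 of the 35 members rose and 0 fell in C57, where 15.7% of all genes passed (11.5% higher and 4.3% lower), while in AKR 2 rose and 14 fell, where 16.9% passed. By direction, the 14 members that fell in AKR are 40% of the 35, beside 7.41% of all genes tested, and the median change of the members was -0.32 against -0.04 over all genes. In C57 the corresponding medians were 0.03 and -0.01. The members were chosen with earlier results of these data known, so their shares beside all genes are a description and not independent support. After smoke, 8 members rose and 10 fell with LPS in AKR, where 31.5% of all genes passed.

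In C57 after smoke no gene passed with all arrays (0% of genes; 1300 genes and 4 members had an unadjusted p under 0.05 in limma). Without both doubted arrays 4 members rose and 8 fell there, among 20.7% of all genes. That leaves only arrays 1 and 2 in each C57 smoke group. The arrays were doubted for genes that LPS induces, so leaving them out is tied to the response tested. This limit holds for every C57 change after smoke given without them. The same omission lowers the estimated spread of LPS-responsive genes in every comparison. It gave 7 members up and 4 down in C57 after air (22.9% of genes), 4 up and 15 down in AKR after air (22.7%) and 9 up and 11 down in AKR after smoke (35.0%). Leaving out single arrays moved the counts too. Counts over all genes in those fits are not given here. A general loss of calls therefore cannot be told from a loss among the members. The count in C57 after air dropped from 7 to 1 without C57 air saline 1, and to 4 without C57 air saline 2, C57 air saline 3 or C57 air LPS 1. In AKR after air it dropped from 16 to 5 without AKR air LPS 2, to 7 without AKR air saline 1 and to 9 without AKR air saline 3. In AKR after smoke it dropped from 18 to 7 without AKR smoke LPS 2, which leaves 1 array in that group, assumed to vary like the other groups. Against room air alone in place of saline, a reference chosen after the data were seen, 6 members rose and 1 fell in C57 (22.9% of genes) and 0 rose and 11 fell in AKR (15.8%). The room air arrays used were titled 3 wk in AKR but 6 wk in C57, where the LPS arrays were titled 3 wk. Those that rose in C57 were Col4a1, Col4a2, Fn1, Lox, Loxl3 and Tnc, and Col14a1 fell. Those that fell in AKR were Bgn, Col14a1, Col6a1, Col6a2, Col6a3, Fbln1, Fbln5, Loxl1, Mfap4, Postn and Sparc, of which Fbln5, Loxl1, Mfap4, Postn and Sparc had not passed against saline.

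**Figure D1:**
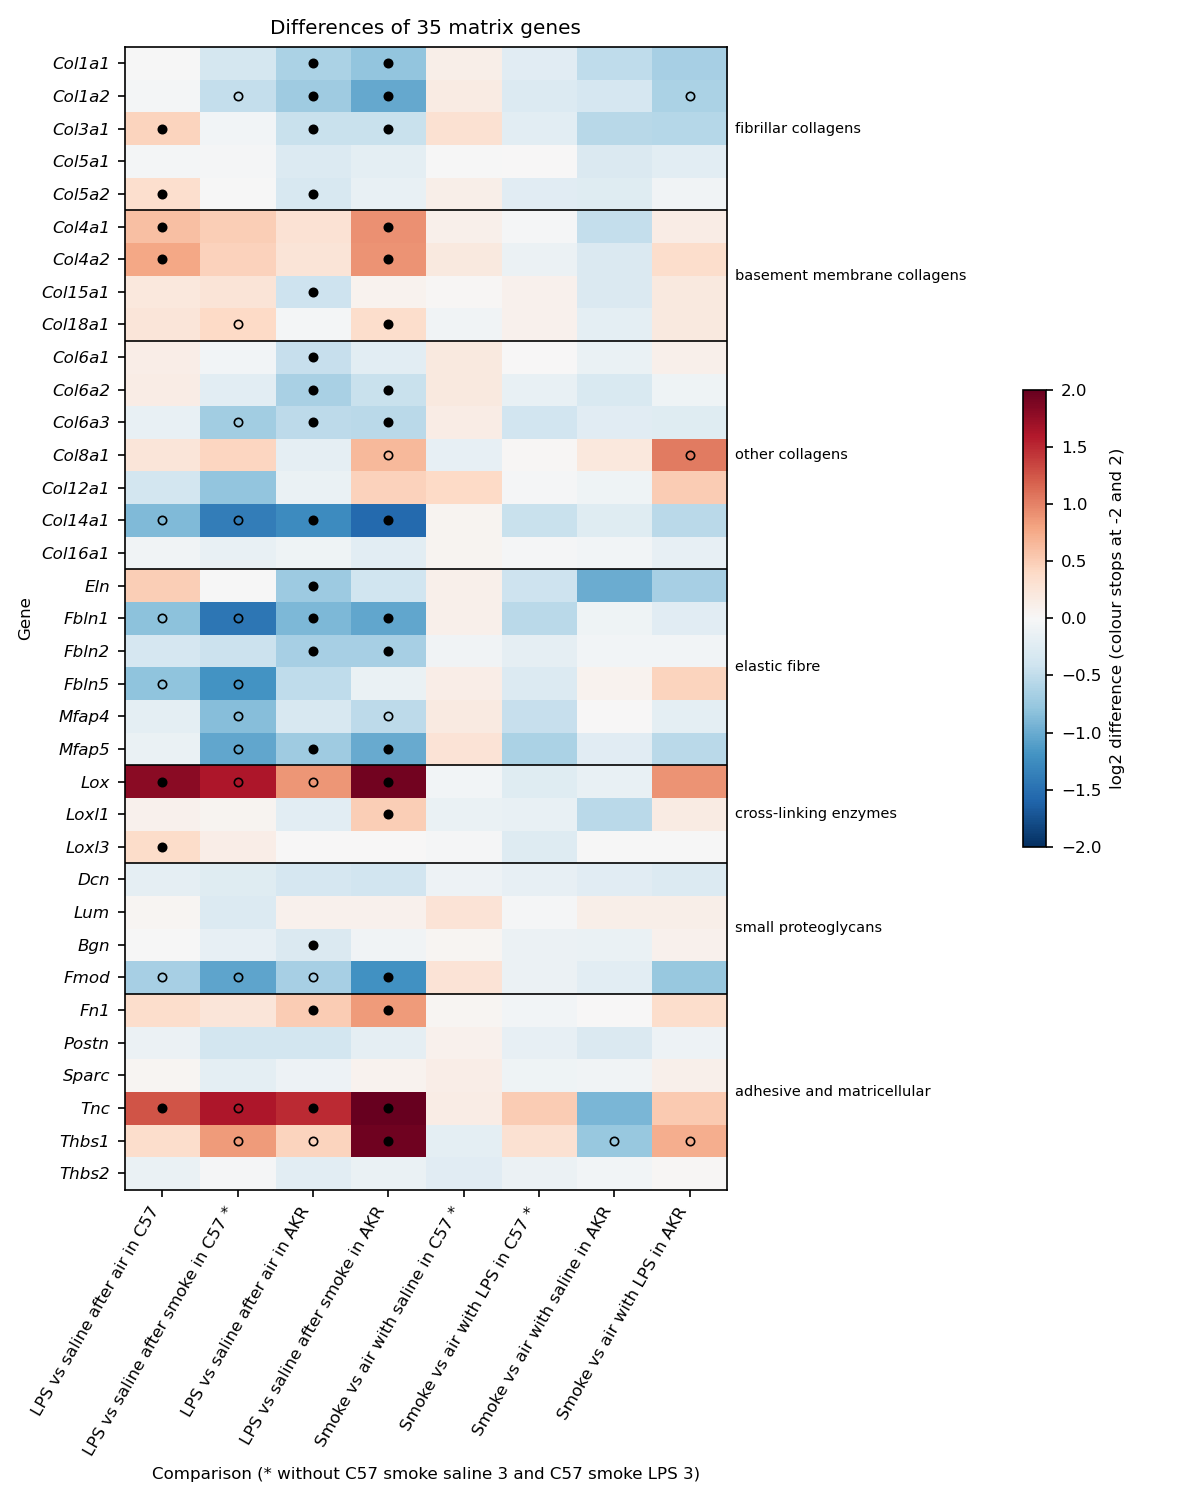
Log2 change of each of the 35 matrix genes (rows, grouped by role) in each comparison (columns), from red for higher to blue for lower. Columns with an asterisk show values without both doubted C57 arrays, filled dots mark changes that passed at an adjusted p under 0.05 and open circles those that passed without the doubted arrays but not with all; a blue block of fibrillar and collagen VI genes in the AKR air column has no match in the C57 air column.

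Of the 5 fibrillar collagen genes, 4 fell with LPS in AKR after air and 3 after smoke, while in C57 after air 2 rose. Col1a2, which encodes the alpha-2 chain of collagen I, stood at 10.69, 10.47 and 10.76 in AKR air saline and at 10.03, 9.61 and 10.13 in AKR air LPS. The groups do not overlap, and it fell by 0.71 on the log2 scale (SE 0.16, adjusted p 0.00288, limma). In AKR smoke saline it stood at 10.30, 10.47 and 10.15 and in AKR smoke LPS at 9.33 and 9.24, again without overlap, and the change was -1.02 ± 0.17 (adjusted p 0.000199). The C57 arrays after air overlapped, with 9.72, 9.91 and 9.79 for saline and 9.90, 9.53 and 9.86 for LPS, a change of -0.04 ± 0.16. Without both doubted arrays Col1a2 fell in C57 after smoke (-0.47 ± 0.16, adjusted p 0.0345). Both AKR calls held whichever array was left out. Col1a1, the alpha-1 chain, stood at 10.95, 10.60 and 11.26 in AKR air saline and at 10.41, 9.85 and 10.65 in AKR air LPS. The highest LPS array lies above the lowest saline array, and the change was -0.63 ± 0.20 (adjusted p 0.0309). After smoke Col1a1 fell in AKR by 0.79 on the log2 scale (SE 0.22), from 10.51, 10.65 and 10.12 to 9.69 and 9.57.

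Col3a1, which encodes collagen III, rose in C57 and fell in AKR. It stood at 8.50, 8.63 and 8.51 in C57 air saline and at 9.29, 8.74 and 8.96 in C57 air LPS, every LPS array above every saline array, and rose by 0.45 ± 0.14 (adjusted p 0.0307). In AKR it stood at 9.83, 9.65 and 9.85 with saline and at 9.51, 8.99 and 9.48 with LPS after air, every LPS array below every saline array, a change of -0.45 ± 0.14 (adjusted p 0.0294). After smoke it fell in AKR as well, from 9.14, 9.46 and 9.04 to 8.83 and 8.70 (-0.45 ± 0.16). Col5a2, a chain of collagen V, which sets the width of collagen I fibrils, had the same opposite directions. Its C57 levels were 7.28, 7.43 and 7.25 with saline and 7.68, 7.56 and 7.70 with LPS, and its AKR levels 7.50, 7.36 and 7.42 with saline and 7.19, 6.99 and 7.13 with LPS. The groups of neither strain overlap. It rose by 0.33 ± 0.09 in C57 (adjusted p 0.0142) and changed by -0.32 ± 0.09 in AKR (adjusted p 0.0134). Col5a1, another collagen V chain, did not pass in any of these comparisons, with -0.27 ± 0.10 in AKR after air (adjusted p 0.0785) and -0.04 ± 0.10 in C57.

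Single arrays ended several of the fibrillar calls. Col3a1 kept its C57 call after air in 1 of 6 fits that left out 1 array each, with a weakest change of 0.30 (adjusted p 0.147) without C57 air LPS 1, and Col5a2 in 3 of 6. Col1a1 and Col3a1 kept their AKR calls after air in 3 of 6, with -0.41 (adjusted p 0.207) and -0.28 (adjusted p 0.209) without AKR air LPS 2. Col5a2 kept it in 4 of 6, with -0.26 (adjusted p 0.0856) without the same array. Col1a1 kept its AKR call after smoke in 4 of 5 and Col3a1 in 2 of 5. AKR air saline lungs were also high in these genes beside room air alone for 3 wk in the same array set, where Col1a1 stood at 10.55 and 10.41, Col1a2 at 10.49 and 10.32 and Col3a1 at 9.63 and 9.38. Set against room air alone instead of saline, a reference chosen after the data were seen, AKR air LPS gave -0.18 for Col1a1 (adjusted p 0.666), -0.48 for Col1a2 (adjusted p 0.0614), -0.17 for Col3a1 (adjusted p 0.508) and -0.17 for Col5a2 (adjusted p 0.263). In C57, Col3a1 gave 0.21 (adjusted p 0.267) against room air alone for 6 wk.

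The basement membrane collagen genes Col4a1 and Col4a2 rose with LPS in C57 after air and in AKR after smoke. These genes encode the alpha-1 and alpha-2 chains that assemble into 1 collagen IV protomer, and they are transcribed away from each other. Their promoter windows, from 250 bases before to 50 bases after the outermost RefSeq start (GRCm38.p6), are shown because both genes moved together. The windows lie at chr8:11312777-11313076 on the minus strand for Col4a1 and chr8:11312555-11312854 on the plus strand for Col4a2. They share 78 bases as reverse complements, and have start sites 21 bases apart. These outermost starts cross, so the 250 bases before each start lie on the transcribed side of the other start.
Col4a1: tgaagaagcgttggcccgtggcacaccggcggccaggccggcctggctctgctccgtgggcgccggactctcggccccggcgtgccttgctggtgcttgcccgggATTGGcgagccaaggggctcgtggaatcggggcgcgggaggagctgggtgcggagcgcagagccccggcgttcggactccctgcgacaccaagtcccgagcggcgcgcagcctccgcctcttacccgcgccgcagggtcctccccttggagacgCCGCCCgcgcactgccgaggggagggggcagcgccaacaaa
Col4a2: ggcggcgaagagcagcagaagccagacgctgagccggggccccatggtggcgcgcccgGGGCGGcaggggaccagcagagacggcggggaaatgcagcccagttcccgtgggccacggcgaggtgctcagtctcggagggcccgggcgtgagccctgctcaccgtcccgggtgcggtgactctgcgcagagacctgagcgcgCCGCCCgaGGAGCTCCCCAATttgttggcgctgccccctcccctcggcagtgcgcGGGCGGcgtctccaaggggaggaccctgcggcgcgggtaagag
Capitals mark matches on either strand to the CCAAT box (CCAAT), the GC box (GGGCGG) and, in Col4a2, the NF-kB consensus, which here overlaps the CCAAT match. Among 27025 RefSeq promoters of the same length, 38.0% hold a CCAAT match, 35.9% a GC box match and 8.2% an NF-kB match. Promoters were listed for 22 of the 37 genes, of which 9 hold a CCAAT match, 13 a GC box match and 4 an NF-kB match (Col4a2, Col6a2, Fbln1 and Thbs2). A match is a run of letters and says nothing of binding.

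Col4a2 stood at 9.82, 9.94 and 10.09 in C57 air saline and at 10.84, 10.72 and 10.62 in C57 air LPS. Every LPS array lies above every saline array, and Col4a2 rose by 0.77 ± 0.21 (1.71-fold, adjusted p 0.016). Col4a1 stood at 9.21, 9.16 and 9.30 with saline and at 10.06, 9.75 and 9.68 with LPS, again without overlap, and rose by 0.61 ± 0.18 (adjusted p 0.0264). Col4a1 in AKR after smoke stood at 8.86, 8.84 and 9.28 with saline and at 9.83 and 9.98 with LPS, a rise of 0.91 ± 0.20 (1.88-fold, adjusted p 0.00177). Col4a2 went there from 9.30, 9.35 and 9.96 to 10.34 and 10.52 (0.90 ± 0.23, adjusted p 0.00536). AKR room air for 3 wk, in the same array set, held Col4a1 at 9.69 and 9.68 and Col4a2 at 10.17 and 10.20. These levels lie above the AKR smoke saline arrays and nearer to the AKR smoke LPS arrays, which lie above them. AKR smoke LPS was not tested against room air alone, for these or other members. In AKR after air the saline arrays ranged widely, at 9.70, 9.59 and 9.10 for Col4a1, and the LPS arrays at 9.55, 9.94 and 9.76 overlapped them; the changes of 0.29 ± 0.18 for Col4a1 and 0.26 ± 0.21 for Col4a2 did not pass. The AKR saline array with the low values is number 3, whose Saa3 stands apart; without it the changes were 0.11 for Col4a1 (adjusted p 0.761) and 0.04 for Col4a2 (adjusted p 0.935). In C57 after air Col4a1 kept its call in 2 of 6 fits with 1 array left out (weakest 0.49, adjusted p 0.0986, without C57 air LPS 1) and Col4a2 in 5 of 6 (0.71, adjusted p 0.0658, without C57 air saline 1). After smoke in AKR Col4a1 kept it in 5 of 5 and Col4a2 in 4 of 5 (0.81, adjusted p 0.0671, without AKR smoke LPS 2).

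Col15a1 and Col18a1 encode multiplexins, collagens of the basement membrane zone, and the C-terminal part of collagen XVIII is endostatin. Col15a1 fell with LPS in AKR after air, from 8.14, 7.74 and 8.05 to 7.65, 7.40 and 7.63 (-0.42 ± 0.13, adjusted p 0.0281). It kept the call in 3 of 6 fits with 1 array left out, and its value against room air alone was -0.03 (adjusted p 0.93). Col18a1 passed in AKR after smoke, from 7.82, 7.88 and 7.82 to 8.25 and 8.12 (0.34 ± 0.13, adjusted p 0.0474), and in 0 of 5 fits with 1 array left out; its weakest value was 0.28 (adjusted p 0.273) without AKR smoke LPS 1. Without both doubted arrays Col18a1 also rose in C57 after smoke, by 0.39 ± 0.14 (adjusted p 0.0485).

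All 3 collagen VI chains listed fell with LPS in AKR after air. The genes Col6a1 and Col6a2 lie next to each other in RefSeq gene order and encode chains that assemble with the Col6a3 product. Their promoter windows (RefSeq, GRCm38.p6), both on the minus strand, are chr10:76725995-76726294 for Col6a1 and chr10:76623581-76623880 for Col6a2, and are shown because both genes answered LPS differently in the 2 strains.
Col6a1: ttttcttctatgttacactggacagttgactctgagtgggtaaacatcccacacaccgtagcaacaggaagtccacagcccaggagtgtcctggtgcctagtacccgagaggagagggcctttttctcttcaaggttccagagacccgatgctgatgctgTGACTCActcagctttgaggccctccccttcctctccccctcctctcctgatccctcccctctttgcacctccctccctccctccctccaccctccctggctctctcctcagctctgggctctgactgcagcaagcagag
Col6a2: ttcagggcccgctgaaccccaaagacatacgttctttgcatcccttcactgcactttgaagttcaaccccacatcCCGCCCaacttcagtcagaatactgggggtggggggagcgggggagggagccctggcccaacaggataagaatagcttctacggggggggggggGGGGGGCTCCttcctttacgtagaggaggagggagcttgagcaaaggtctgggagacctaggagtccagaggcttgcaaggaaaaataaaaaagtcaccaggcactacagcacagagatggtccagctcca
Capitals mark an AP-1 match (TGANTCA) in Col6a1, and a GC box match (GGGCGG, either strand) and an NF-kB match in Col6a2. The AP-1 letters occur in 7.9% of the 27025 promoters and in 1 of the 22 member promoters.

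Col6a2 stood at 9.80, 9.79 and 9.51 in AKR air saline and at 8.99, 9.04 and 9.14 in AKR air LPS. The groups lie well apart, and the change was -0.64 ± 0.12 (1.56-fold lower, adjusted p 0.000636). Col6a1 stood at 10.04, 10.09 and 9.86 with saline and at 9.42, 9.63 and 9.57 with LPS (-0.46 ± 0.10, adjusted p 0.00239). Both genes passed in all 15 settings run for this comparison, single arrays left out and room air alone as the reference included. In C57 after air Col6a1 was at 9.71, 9.83 and 9.68 with saline and 9.85, 9.89 and 9.88 with LPS, and Col6a2 at 9.44, 9.56 and 9.49 against 9.63, 9.64 and 9.65. Every C57 LPS array lies above every saline array for both, yet the changes of 0.13 ± 0.10 and 0.14 ± 0.12 did not pass (adjusted p 0.358 and 0.41). After smoke Col6a2 fell in AKR, from 9.42, 9.38 and 9.40 to 8.91 and 9.02 (-0.44 ± 0.13, adjusted p 0.0129; adjusted p 0.118 without AKR smoke LPS 1), and Col6a1 had -0.21 ± 0.11 (adjusted p 0.155). Col6a3 fell in AKR after air, from 9.39, 9.18 and 9.20 to 8.65, 8.80 and 8.76 (-0.52 ± 0.18, adjusted p 0.0445), and after smoke, from 8.97, 9.03 and 9.10 to 8.56 and 8.43 (-0.53 ± 0.20, adjusted p 0.0409). Neither Col6a3 call held in any fit with 1 array left out; without both doubted arrays the adjusted p values were 0.000133 and 0.000213.

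Col14a1, a fibril-associated collagen that binds decorin-coated fibrils, had the lowest change of the 35 members in 3 of the 4 LPS comparisons, all but C57 after smoke. It stood at 9.24, 9.21 and 9.30 in AKR air saline and at 8.30, 7.61 and 8.06 in AKR air LPS, with no overlap, and the change was -1.26 ± 0.34 (2.39-fold lower, adjusted p 0.0127). After smoke it went in AKR from 9.06, 9.04 and 8.91 to 7.69 and 7.21 (-1.55 ± 0.38, 2.93-fold lower, adjusted p 0.00351). C57 lungs after air went from 8.88, 9.27 and 8.94 to 7.79, 8.28 and 8.36, again with no overlap, but the change of -0.89 ± 0.34 did not pass with all arrays (adjusted p 0.0729). It passed without both doubted arrays (adjusted p 0.0011), and against room air alone the change was -1.01 (adjusted p 0.0357). On those arrays Col14a1 stood at 7.95 for the one labelled C57 smoke saline 3 and at 9.46 for the one labelled C57 smoke LPS 3. The other C57 smoke arrays read 9.35 and 8.83 with saline and 8.02 and 7.39 with LPS, and without the doubted arrays the change there was -1.39 ± 0.22 (adjusted p 0.000114). In AKR the call was lost without AKR air LPS 2 (-1.07, adjusted p 0.0759) and without AKR smoke LPS 2 (-1.31, adjusted p 0.0658). Col8a1, a short-chain collagen of vessel walls, and Col12a1 and Col16a1, both fibril-associated, did not pass with all arrays in any LPS comparison. Col8a1 in AKR after smoke went from 7.60, 7.76 and 7.88 to 8.38 and 8.41 (0.65 ± 0.28, adjusted p 0.0762; 0.0227 without both doubted arrays).

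**Figure D2:**
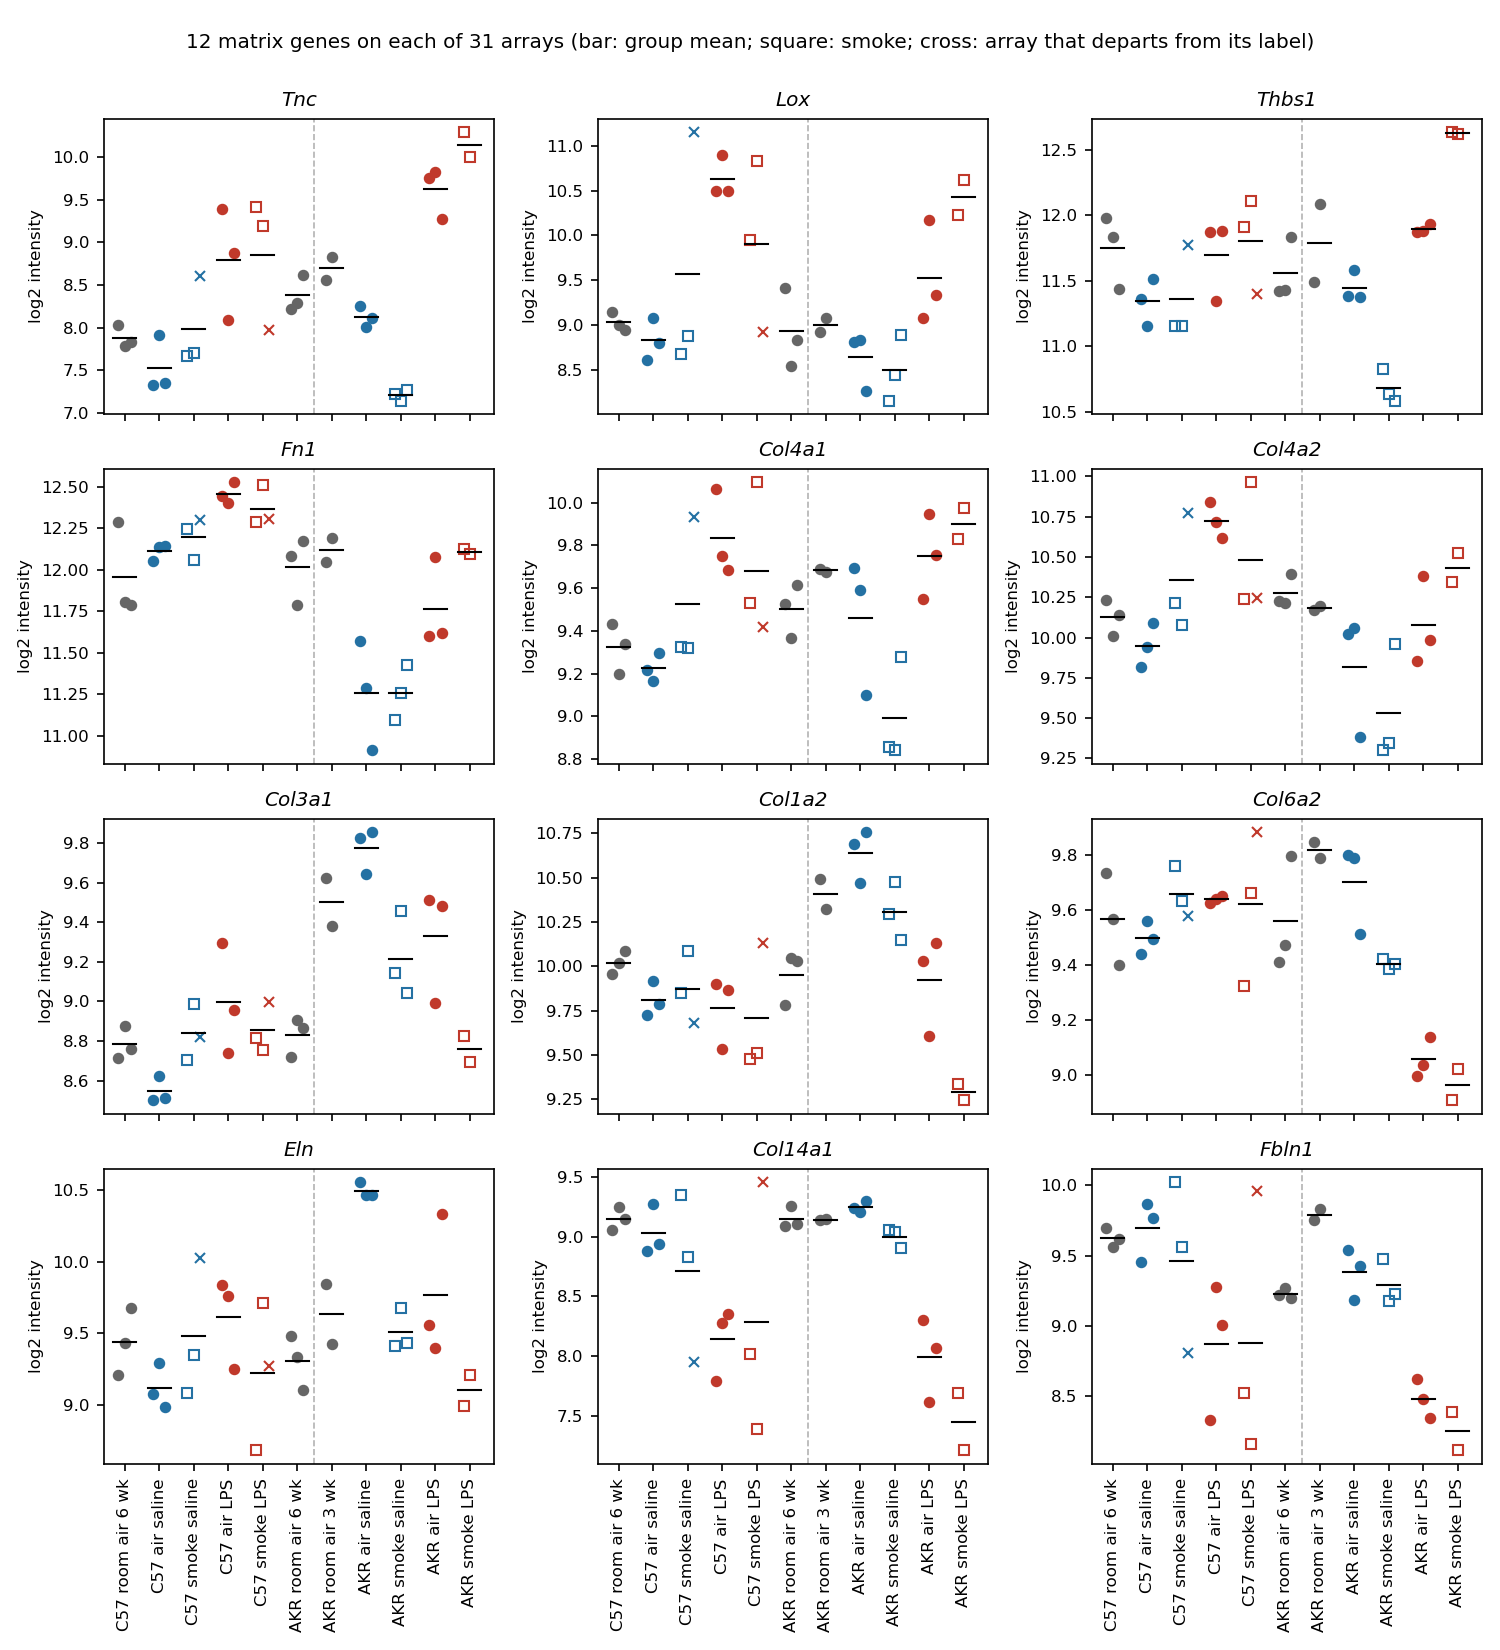
Log2 intensity of 12 matrix genes on each of the 31 arrays, by group. Circles are air, open squares smoke, crosses the 2 doubted arrays and bars group means; the dashed line separates the 2 array sets, whose levels are not comparable. The AKR LPS arrays of Col6a2 lie below the AKR saline arrays, and the crosses of Lox stand at 11.15 in C57 smoke saline and at 8.92 in C57 smoke LPS.

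Of the 6 elastic fibre genes measured, 4 fell with LPS in AKR after air and 3 after smoke. Eln, which encodes tropoelastin, stood at 10.55, 10.46 and 10.46 in AKR air saline and at 9.56, 9.40 and 10.33 in AKR air LPS, a change of -0.73 ± 0.25 (adjusted p 0.0463). The third LPS array lies just under the saline arrays. Eln stood at 9.84 and 9.42 in AKR room air for 3 wk, so that against room air alone the value turned to 0.13 (adjusted p 0.82). It kept its call in 1 of 6 fits with 1 array left out, down to -0.55 (adjusted p 0.209) without AKR air LPS 2. Eln in C57 after air went the other way without passing, from 9.08, 9.29 and 8.98 to 9.84, 9.76 and 9.25 (0.50 ± 0.25, adjusted p 0.171). In AKR after smoke it was -0.41 ± 0.28 (adjusted p 0.292).

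The fibulins and microfibril-associated genes join elastin to its scaffold and to basement membranes. Fbln2 fell in AKR after air, from 8.52, 8.28 and 8.29 to 7.86, 7.38 and 7.83 (-0.67 ± 0.17, adjusted p 0.0104), and after smoke, from 8.35, 8.22 and 8.34 to 7.88 and 7.40 (-0.66 ± 0.19, adjusted p 0.0121). Fbln1 fell in AKR after air, from 9.54, 9.18 and 9.43 to 8.62, 8.48 and 8.34 (-0.90 ± 0.31, adjusted p 0.0496), and after smoke, from 9.47, 9.18 and 9.23 to 8.39 and 8.11 (-1.04 ± 0.35, adjusted p 0.0259). The LPS and saline arrays are apart in all of these, yet single arrays ended calls. Without AKR smoke LPS 2 the Fbln2 change after smoke was -0.43 (adjusted p 0.229), and its call after air was kept in 4 of 6 fits. Fbln1 kept its call after smoke in 2 of 5 fits (-0.91 with adjusted p 0.171 without AKR smoke LPS 2). The Fbln1 call after air was lost in every fit with 1 array left out, with adjusted p values up to 0.139; without both doubted arrays it was 0.000652. In C57 after air Fbln1 went from 9.45, 9.87 and 9.77 to 8.33, 9.28 and 9.01 (-0.83 ± 0.31, adjusted p 0.0714 with all arrays and 0.00159 without the doubted ones). Fbln5, needed for elastic fibre assembly, had -0.81 there (adjusted p 0.115, and 0.0469 without them). In C57 after smoke, without the doubted arrays, Fbln1 fell by 1.45 (SE 0.22) and Fbln5 by 1.20 (SE 0.35) on the log2 scale. In AKR Fbln5 did not pass against saline, at -0.50 ± 0.35 after air and -0.13 ± 0.39 after smoke, while against room air alone it fell after air by 1.31 (adjusted p 0.027) and Fbln1 by 1.31 (adjusted p 0.0157).

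Mfap5 fell in AKR after air, from 9.35, 8.97 and 9.02 to 8.32, 8.14 and 8.77 (-0.71 ± 0.23, adjusted p 0.0351), and after smoke, from 9.02, 9.05 and 8.58 to 7.99 and 7.75 (-1.01 ± 0.25, adjusted p 0.00432). It kept these calls in 2 of 6 and 4 of 5 fits with 1 array left out, down to -0.57 (adjusted p 0.159) without AKR air LPS 2 and -0.89 (adjusted p 0.0638) without AKR smoke LPS 2. In C57 its change was -0.14 ± 0.23 after air; after smoke it was -0.59 ± 0.23 with all arrays (adjusted p 0.56) and -1.04 ± 0.18 without the doubted ones (adjusted p 0.000317). Against room air alone, the AKR values after air were -0.40 for Mfap5 (adjusted p 0.323) and -0.27 for Fbln2 (adjusted p 0.399). Mfap4, another microfibril protein, did not pass with all arrays, and without the doubted ones it had -0.53 ± 0.18 in AKR after smoke and -0.85 ± 0.20 in C57 after smoke. Against room air alone it fell in AKR after air by 0.78 (adjusted p 0.0248).

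Among the cross-linking enzymes, Lox, the lysyl oxidase itself, had the largest rise of the 35 members in C57 after air. It stood at 8.61, 9.07 and 8.80 with saline and at 10.49, 10.90 and 10.50 with LPS, more than a full log2 unit apart, and rose by 1.80 ± 0.46 (3.49-fold, adjusted p 0.0125). In AKR after smoke Lox went from 8.15, 8.44 and 8.88 to 10.23 and 10.62 (1.93 ± 0.52, 3.81-fold, adjusted p 0.00687). In AKR after air it went from 8.81, 8.83 and 8.27 to 9.08, 10.17 and 9.33, also without overlap, but the change of 0.89 ± 0.46 did not pass with all arrays (adjusted p 0.198, and 0.0185 without the doubted ones). The doubted arrays were the most extreme of their groups here, with Lox at 11.15 on the one labelled C57 smoke saline 3 and at 8.92 on the one labelled C57 smoke LPS 3. The other C57 smoke arrays read 8.68 and 8.88 with saline and 9.95 and 10.83 with LPS, a change of 1.61 ± 0.33 without the doubted arrays (adjusted p 0.00117) against 0.33 ± 0.46 with them. Single arrays ended the Lox call in C57 after air (1.69, adjusted p 0.0512, without C57 air saline 1) and in AKR after smoke (1.73, adjusted p 0.0776, without AKR smoke LPS 2). Loxl3 rose in C57 after air, from 7.59, 7.59 and 7.67 to 7.92, 8.10 and 7.93 (0.37 ± 0.10, adjusted p 0.02; kept in 3 of 6 fits, 0.31 with adjusted p 0.0795 without C57 air LPS 2). In AKR Loxl3 had 0.01 ± 0.10 after air and 0.00 ± 0.12 after smoke. Loxl1, the lysyl oxidase most tied to elastic fibres, rose in AKR after smoke, from 8.80, 8.82 and 8.74 to 9.31 and 9.24 (0.49 ± 0.14, adjusted p 0.0116; kept in 3 of 5 fits, 0.45 with adjusted p 0.093 without AKR smoke LPS 1). The AKR smoke LPS arrays of Loxl1 lie within the range of AKR air saline (9.51, 9.33 and 9.13). They lie below AKR room air for 3 wk (9.75 and 9.56), so the rise is relative to smoke saline only. Loxl1 fell against room air alone in AKR after air by 0.55 (adjusted p 0.0136).

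The small leucine-rich proteoglycans decorate collagen fibrils and control their spacing. Fmod, fibromodulin, fell in AKR after smoke, from 8.82, 8.67 and 8.70 to 7.46 and 7.58 (-1.21 ± 0.31, 2.32-fold lower, adjusted p 0.00492), and kept the call whichever array was left out. After air it was -0.67 in both strains and did not pass with all arrays (adjusted p 0.0989 in C57 and 0.101 in AKR), but did without the doubted ones (adjusted p 0.0119 in both). In AKR the change ranged from -0.90 to -0.39 over 15 settings. The levels were 8.10, 7.996 and 8.15 against 6.96, 7.69 and 7.58 in C57, and 8.85, 9.49 and 8.48 against 8.12, 8.27 and 8.42 in AKR, without overlap in either strain. Bgn, biglycan, fell in AKR after air by 0.29 (SE 0.08, adjusted p 0.0145), from 12.72, 12.75 and 12.71 to 12.27, 12.62 and 12.41; without AKR air LPS 1 the change was -0.21 (adjusted p 0.101). Dcn, decorin, and Lum, lumican, passed in no LPS comparison, with Dcn at -0.34 ± 0.16 and -0.38 ± 0.17 in AKR after air and after smoke, and Lum between 0.02 and 0.08 in all 4. Lum read from 5.71 to 7.19 over the arrays, around the 40th percentile that the filter on low values used. That low level limits what its small changes can show.

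Of the 6 adhesive and matricellular genes, 1 rose in C57 after air, 2 in AKR after air and 3 in AKR after smoke. Tnc, tenascin-C, was the member that rose in both strains after air with all arrays. Its promoter window (RefSeq, GRCm38.p6, chr4:64046966-64047265, minus strand) is shown because Tnc had the largest change of any member.
Tnc: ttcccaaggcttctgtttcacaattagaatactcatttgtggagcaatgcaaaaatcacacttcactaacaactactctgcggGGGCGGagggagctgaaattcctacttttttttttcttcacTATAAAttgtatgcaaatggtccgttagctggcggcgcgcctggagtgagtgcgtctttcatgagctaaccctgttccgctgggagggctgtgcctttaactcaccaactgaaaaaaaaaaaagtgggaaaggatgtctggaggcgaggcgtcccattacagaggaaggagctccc
Capitals mark a GC box match (GGGCGG) and a TATA box match (TATAAA), letters that 14.2% of the 27025 promoters and 3 of the 22 member promoters hold on either strand. In C57 Tnc stood at 7.33, 7.91 and 7.35 with saline and at 9.40, 8.09 and 8.88 with LPS after air, and rose by 1.26 ± 0.31 (2.40-fold, adjusted p 0.01). The lowest LPS array lies just above the highest saline array, and without C57 air LPS 1 the rise was 0.96 (adjusted p 0.0535). AKR lungs after air stood at 8.25, 8.01 and 8.12 with saline and at 9.76, 9.83 and 9.28 with LPS, and rose by 1.50 ± 0.31 (2.83-fold, adjusted p 0.00187). In AKR after smoke it stood at 7.22, 7.14 and 7.27 with saline and at 10.29 and 10.002 with LPS, and rose by 2.93 ± 0.35 (7.64-fold, adjusted p 5.38e-06). Both AKR calls held whichever array was left out. Against room air alone, with Tnc at 8.56 and 8.83, the AKR value after air was 0.93 (adjusted p 0.0699). In C57 after smoke, without the doubted arrays, Tnc rose by 1.62 ± 0.27 (adjusted p 0.000167).

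Thbs1, thrombospondin-1, an activator of latent TGF-beta, stood in AKR after smoke at 10.83, 10.64 and 10.59 with saline and at 12.63 and 12.62 with LPS. It rose by 1.94 ± 0.22 (3.84-fold, adjusted p 3.81e-06), with the call kept in every fit that left out 1 array. AKR lungs after air went from 11.38, 11.58 and 11.38 to 11.87, 11.88 and 11.93, without overlap, and the change of 0.45 ± 0.20 did not pass with all arrays (adjusted p 0.122, and 0.0492 without the doubted ones). In C57 it was 0.36 ± 0.20 after air (adjusted p 0.216) and, without the doubted arrays, rose by 0.85 ± 0.20 after smoke (adjusted p 0.00375). Fn1, fibronectin, rose in AKR after air, from 11.57, 11.29 and 10.91 to 11.60, 12.08 and 11.62 (0.51 ± 0.15, adjusted p 0.0238), and after smoke, from 11.09, 11.26 and 11.43 to 12.12 and 12.10 (0.85 ± 0.17, adjusted p 0.000768). AKR room air for 3 wk held Fn1 at 12.05 and 12.19, above the AKR air saline arrays, so that against room air alone the value after air turned to -0.35 (adjusted p 0.168). The AKR smoke LPS arrays, at 12.12 and 12.10, lie between those room air arrays, so the rise after smoke is relative to saline only. The call after air was lost without AKR air LPS 2 (0.36, adjusted p 0.161) and without AKR air saline 3 (0.34, adjusted p 0.15). In C57 after air Fn1 was 0.35 ± 0.15 against saline (adjusted p 0.121) and 0.50 against room air alone (adjusted p 0.0237). Postn, Sparc and Thbs2 passed in no comparison of LPS with saline. Postn fell against room air alone in AKR after air by 0.99 (adjusted p 0.0055) and Sparc by 0.34 (adjusted p 0.0472).

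The difference between the strains in the LPS response after air was tested as an interaction, the AKR response minus the C57 response. It passed for 4 of the 35 members, all with the lower response in AKR, where 1.14% of all genes passed; 28 of 35 members had a value below 0, beside 58.2% of all genes. The choice of members with earlier results known limits these shares as well. The 4 were Col3a1 (-0.90 ± 0.20, adjusted p 0.0216), Col5a2 (-0.65 ± 0.12, adjusted p 0.00711), Col6a1 (-0.59 ± 0.14, adjusted p 0.0331) and Col6a2 (-0.79 ± 0.16, adjusted p 0.0151). They form 2 pairs of neighbouring genes in RefSeq order, Col3a1 with Col5a2 and Col6a2 with Col6a1; Col4a1 with Col4a2 and Dcn with Lum are the other neighbouring pairs of members, and did not pass. Without both doubted arrays Eln (-1.23 ± 0.32, adjusted p 0.0417) and Col1a2 (-0.67 ± 0.18, adjusted p 0.0457) passed as well, among 2.73% of genes. Tnc, Fmod and Fbln1 gave differences near 0, with 95% intervals from -0.67 to 1.14, from -0.81 to 0.81 and from -0.99 to 0.84, which leave room for differences in either direction.

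The interaction depended on the array left out and on the reference. Over 12 fits that left out 1 array each, Col5a2 passed in 12, Col6a2 in 11, Col3a1 in 8 and Col6a1 in 5, and the fit with the highest adjusted p gave, in that order, -0.62 (adjusted p 0.0302), -0.76 (adjusted p 0.0538, without AKR air LPS 1), -0.73 (adjusted p 0.0626, without AKR air LPS 2) and -0.53 (adjusted p 0.118, without AKR air LPS 1). When both strains were set against room air alone, 4 members passed again, Bgn, Col6a1, Col6a2 and Loxl3, among 0.741% of genes, while Col3a1 (-0.39, adjusted p 0.306) and Col5a2 (-0.40, adjusted p 0.111) did not. That reference was titled 6 wk in C57 and 3 wk in AKR, so strain and titled exposure time cannot be told apart in it.

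**Figure D3:**
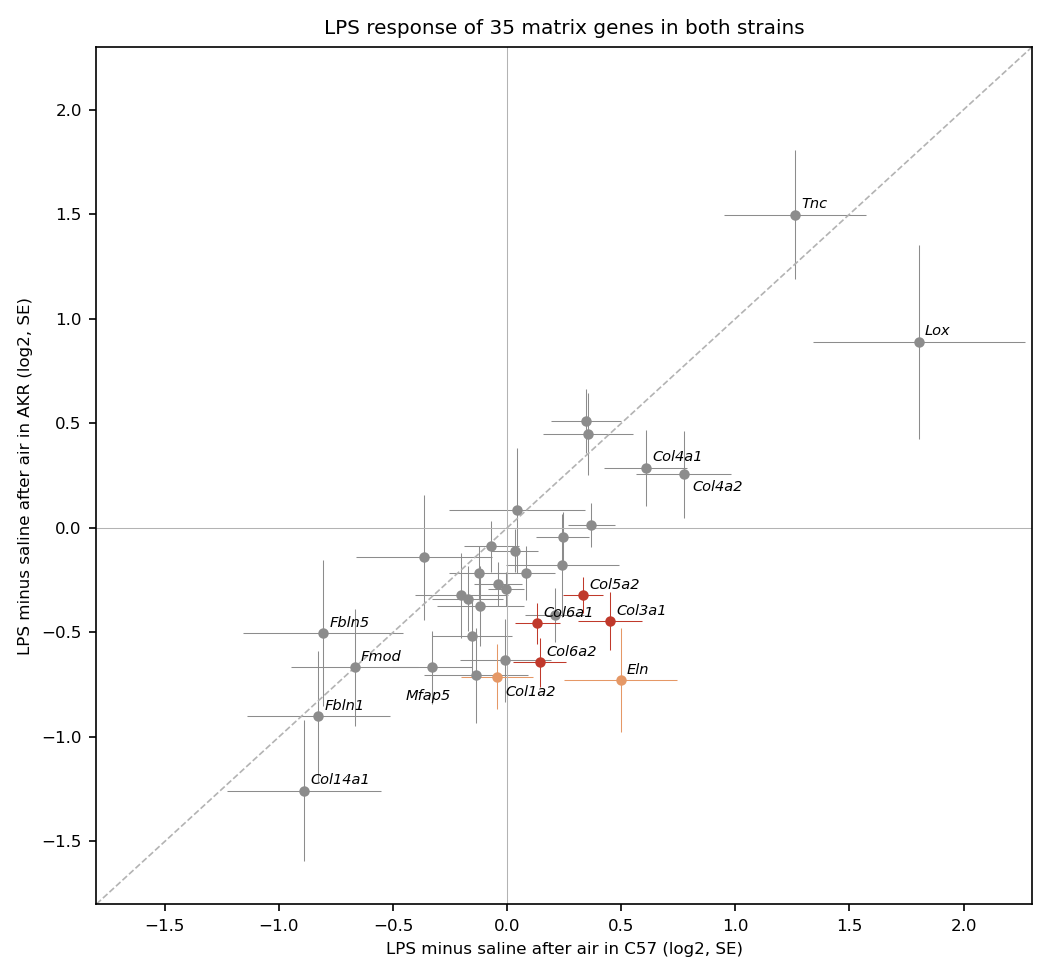
Log2 change with LPS after air in C57 (x axis) and AKR (y axis) for the 35 matrix genes, with standard errors as bars and equal response on the dashed line. Red points passed the test of the strain difference, orange points passed without both doubted arrays but not with all and grey points passed in neither; Col3a1, Col5a2, Col6a1 and Col6a2 lie right of 0 in C57 and below 0 in AKR.

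Smoke without LPS moved no matrix gene past the threshold with all arrays. In C57 with saline, smoke against air gave 0 of 35 members and 0% of genes (2 members and 906 genes at an unadjusted p under 0.05 in limma), and 0 without the doubted arrays. The largest values there were Lox at 0.74 ± 0.46 and Tnc at 0.46 ± 0.31, which without the doubted arrays were -0.05 and 0.15. In AKR with saline 0 members passed, where 0.034% of genes did (0.0272% higher and 0.0068% lower), while 12 members and 944 genes had an unadjusted p under 0.05. Of the 35 members 30 were lower after smoke, with a median of -0.22, beside 45.8% of all genes lower and a median of 0.01. Eln stood at 9.41, 9.68 and 9.43 after smoke against 10.55, 10.46 and 10.46 after air (-0.98 ± 0.25, adjusted p 0.162). Tnc stood at 7.22, 7.14 and 7.27 against 8.25, 8.01 and 8.12 (-0.91 ± 0.31, adjusted p 0.43). Thbs1 stood at 10.83, 10.64 and 10.59 against 11.38, 11.58 and 11.38 (-0.76 ± 0.20, adjusted p 0.177). None of these groups overlap, and Thbs1 passed without the doubted arrays (adjusted p 0.0396), where 0.333% of genes passed. The AKR air saline arrays are the reference here as they are for LPS, and their high Eln beside room air applies to both.

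With LPS in C57, smoke against air gave 0 members and 0% of genes (1 member and 217 genes at an unadjusted p under 0.05), with and without the doubted arrays. The largest value was Lox at -0.73 ± 0.46 with all arrays, and it was -0.24 without the doubted ones. With LPS in AKR, 0 members passed among 0.0068% of genes (8 members and 2342 genes at an unadjusted p under 0.05), and without the doubted arrays 3 passed among 1.55% (1.22% higher). These were Col8a1 (7.13, 7.43 and 7.52 after air against 8.38 and 8.41 after smoke, 1.04 ± 0.22, adjusted p 0.0177), Thbs1 (0.73 ± 0.18, adjusted p 0.0422) and Col1a2 (-0.64, adjusted p 0.0262). With all arrays Col8a1 was 1.04 ± 0.28 (adjusted p 0.146). Without AKR air LPS 2 the count with all other arrays was 3. Whether the LPS response itself differed between smoke and air in AKR gave 0 members and 0% of genes with all arrays (7 members and 992 genes at an unadjusted p under 0.05). Thbs1 alone among the members passed without the doubted arrays, at 1.49 ± 0.24 (adjusted p 0.0103), where 0.116% of genes passed; Tnc was 1.44 ± 0.33 (adjusted p 0.0771). The strain difference in the smoke response with saline gave 0 members and 0% of genes with and without the doubted arrays (10 members and 762 genes at an unadjusted p under 0.05), the lowest adjusted values being those of Col3a1 at -0.85 ± 0.20 and Eln at -1.35 ± 0.35.

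Instillation of saline alone was compared with room air alone, with the titled exposure time differing in C57. In C57, 0 members passed among 0.0136% of genes (1 member and 907 genes at an unadjusted p under 0.05); the largest value was Thbs1 at -0.41 ± 0.20. In AKR, Fn1 fell, from 12.05 and 12.19 to 11.57, 11.29 and 10.91 (-0.86 ± 0.17, adjusted p 0.0219), where 0.687% of genes passed. It kept the call in 2 of 5 fits with 1 array left out, with -0.79 (adjusted p 0.636) without AKR room air 3 wk 2, -0.94 without AKR room air 3 wk 1 and -0.69 without AKR air saline 3, and Col6a3 joined it without the doubted arrays (-0.47, adjusted p 0.0185). Eln was 0.86 ± 0.28 (adjusted p 0.126) and Postn -0.61 ± 0.21 (adjusted p 0.144) in the same comparison.

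Between the strains in 6 wk of room air, 1 member differed. Mfap5, a microfibril-associated glycoprotein, was lower in AKR, with 8.65, 8.47 and 8.46 against 9.41, 9.47 and 9.45 in C57 (-0.92 ± 0.23, adjusted p 0.0255) where 2.69% of genes passed. Every fit with 1 array left out kept the size, from -0.98 to -0.88, but not the call, with adjusted p values up to 0.113; without the doubted arrays it was 0.000474. Fmod (0.51 ± 0.28) and Tnc (0.50 ± 0.31) had the next largest values and did not pass. Within the smaller array set, Tnc had the widest span of the members, 3.15 log2 units from 7.14 to 10.29, followed by Lox with 2.47, while Loxl3 spanned 0.43. Within the larger set without the doubted arrays, Lox spanned 2.36 and Tnc 2.09, while Bgn spanned 0.31.

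Genes that process, anchor, sense or degrade the matrix were followed from lists of their own. Their counts stand beside 15.7% of all genes called in C57 after air, 16.9% in AKR after air, 31.5% in AKR after smoke and 1.14% in the strain interaction, and several lie near those shares. Of 17 measured collagen-processing genes, 6 rose and 1 fell with LPS in C57 after air, among them Plod3 (0.75 ± 0.14), a lysyl hydroxylase, P4ha3 (0.91 ± 0.20), a prolyl hydroxylase, and Pcolce2 (-1.32 ± 0.41), an enhancer of procollagen cleavage; without the doubted arrays 8 rose and 1 fell, among 22.9% of all genes. In AKR after air 2 rose and 4 fell, with P4ha1 at -0.67 ± 0.15 and P4ha2 at -0.63 ± 0.17 among those that fell, and after smoke 6 rose and 1 fell. The strain interaction passed for P4ha2 (-1.10 ± 0.24), Plod1 (-0.90 ± 0.19) and Serpinh1 (-0.80 ± 0.18), the collagen chaperone, 3 of the 17, again with the lower response in AKR. Of 19 matrix proteases and inhibitors tested, 7 rose and 1 fell in C57 after air, 8 rose and 4 fell in AKR after air, and 9 rose and 1 fell in AKR after smoke. Timp1, an inhibitor of metalloproteinases, had the largest values, 4.21 ± 0.85, 3.35 ± 0.85 and 3.71 ± 0.95 in that order.

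Of 12 laminins and basement membrane linkers, 1 rose in C57 after air (Nid1, 0.51 ± 0.15), 3 fell in AKR after air and 2 fell in AKR after smoke, where Lama2 had -1.04 ± 0.22 and -1.18 ± 0.24. Of 13 matrix receptors, 2 rose and 1 fell in C57 after air, 2 rose and 2 fell in AKR after air, and 2 rose and 3 fell in AKR after smoke. Itga5, the fibronectin receptor subunit, rose in all 3 (1.21 ± 0.24, 1.01 ± 0.24 and 1.63 ± 0.27), and Itga8 fell in C57 after air (-1.30 ± 0.41) and in AKR after smoke (-1.73 ± 0.46). Of 16 genes of TGF-beta signalling, 2 rose in C57 after air, 3 rose and 2 fell in AKR after air, and 4 rose and 2 fell in AKR after smoke; Tgfb1 had 0.94 ± 0.18 and 1.42 ± 0.20 in AKR, and Tgfb3 -0.86 ± 0.21 in AKR after air. Of 5 other elastic fibre genes, 1 rose and 1 fell in C57 after air and 2 rose and 1 fell in each AKR comparison, with Emilin2 at 1.55 ± 0.24 and 2.38 ± 0.27 in AKR and Efemp1 at -0.95 ± 0.24 in C57.

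Markers of the cells that make or surround this matrix were read in the same comparisons, beside the same shares of all genes. Of 10 fibroblast markers, 0 passed in C57 after air (median -0.24), 2 fell in AKR after air (median -0.44; Dpt -1.16 ± 0.18 and Scara5 -0.60 ± 0.12) and 2 fell and 1 rose in AKR after smoke (median -0.33). Their mean, relative to each gene's mean over all arrays, ranged from -0.38 to -0.06 in AKR air saline and from -0.68 to -0.36 in AKR air LPS, and from 0.28 to 0.42 and -0.08 to 0.26 in the C57 groups. Of 8 smooth muscle and myofibroblast markers, 0 passed in C57 after air, 4 fell in AKR after air (Hhip -0.996 ± 0.28 and Myh11 -0.81 ± 0.26) and 7 fell in AKR after smoke. Their mean ranged from 0.05 to 0.74 in AKR air saline and from -0.85 to -0.02 in AKR air LPS. The 6 neutrophil markers all rose in AKR after air (S100a8 4.28 ± 0.79) and after smoke, and 1 passed in C57 after air (Il1r2 3.72 ± 0.83; 6 without the doubted arrays). None of the 8 heart muscle markers passed in these comparisons, but their mean varied within groups, from -1.68 to 0.18 in C57 air LPS, -0.17 to 1.74 in AKR air saline and -0.96 to 1.14 in AKR air LPS. AKR air LPS 2, without which several AKR calls ended, was the array at -0.96 there and at -0.85 for smooth muscle markers. For fibroblast markers it had the highest value of its group, -0.36. The part of these cell populations in the changes of matrix genes was not tested.

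**Figure D4:**
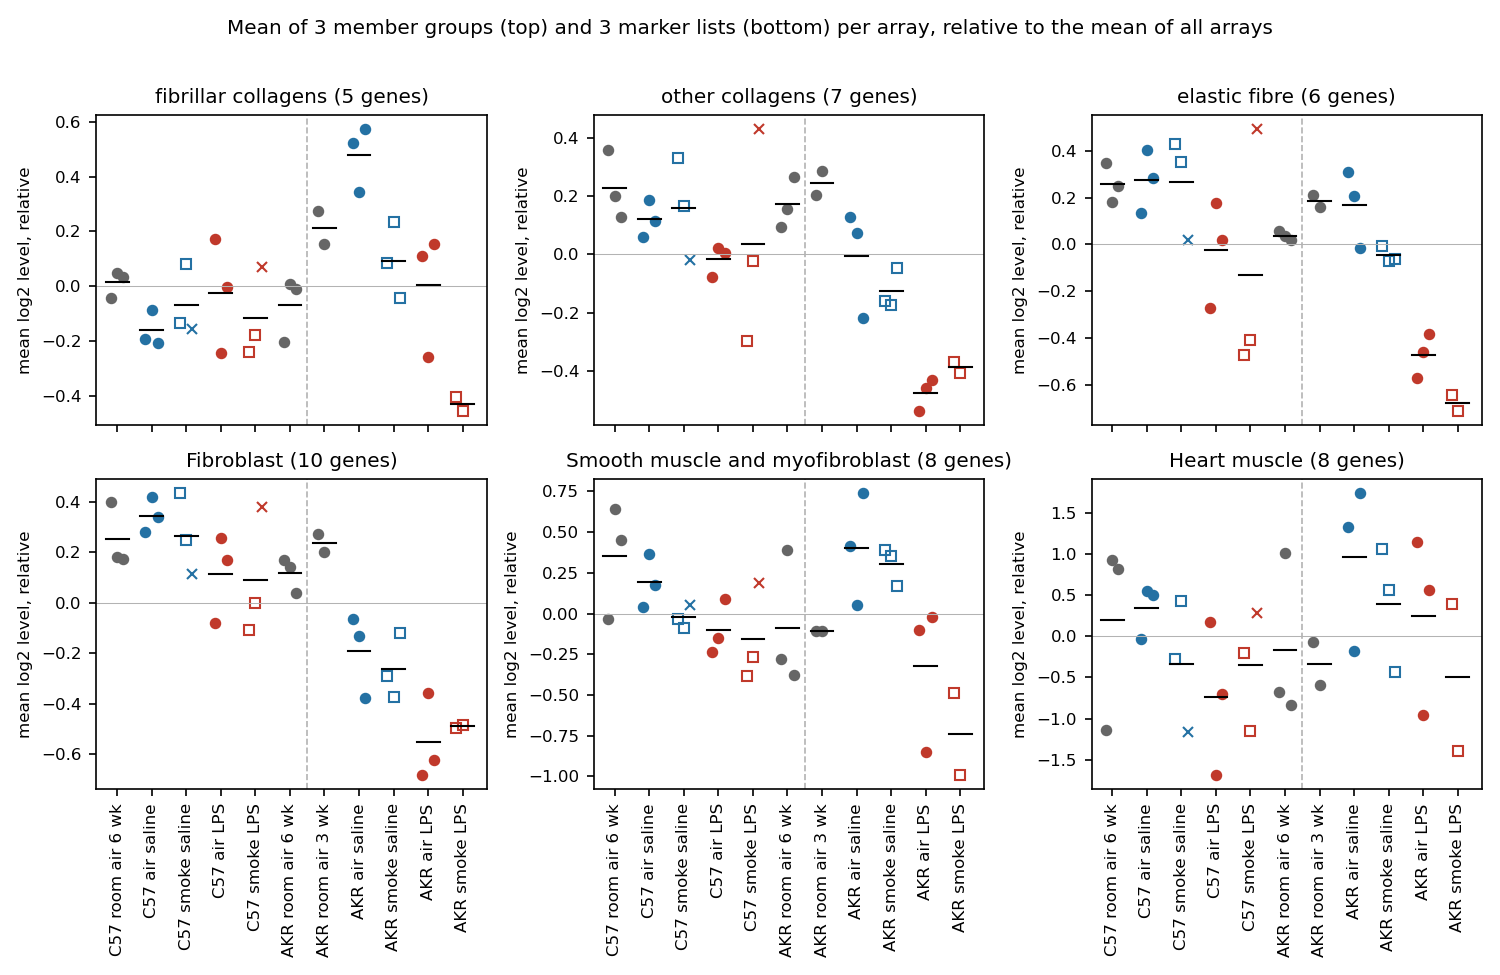
Mean log2 level of 3 matrix gene groups (top) and 3 marker lists (bottom) on each of the 31 arrays, relative to the mean of each gene over all arrays. Circles are air, open squares smoke, crosses the doubted arrays and bars group means; the fibrillar collagens range from 0.34 to 0.57 in AKR air saline and from -0.26 to 0.16 in AKR air LPS, and fibroblast markers from -0.38 to -0.06 and from -0.68 to -0.36.

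Calls shared between the LPS comparisons of separate arrays were as follows. In AKR, 9 members fell both after air and after smoke (Col14a1, Col1a1, Col1a2, Col3a1, Col6a2, Col6a3, Fbln1, Fbln2 and Mfap5), 64.3% of the 14 that fell after air and 90% of the 10 that fell after smoke, and Fn1 and Tnc rose in both. Col4a1, Col4a2, Lox and Tnc rose in both C57 after air and AKR after smoke, 57.1% of 7 and 50% of 8. Between C57 and AKR after air, Tnc rose in both, and Col3a1 and Col5a2 passed in opposite directions. The same overlaps over all genes were not computed, so these shares cannot be read as particular to the members. Of all genes, 7.41% fell in AKR after air and 14.6% in AKR after smoke. In C57 after air 11.5% rose, and in AKR after smoke 16.9%.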

How the data were processed

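Total RNA of whole lungs was hybridised, 1 lung sample an array, to Affymetrix mouse gene arrays, per the labels. The deposited values are log2 intensities of 35556 probe sets on 31 arrays, which the authors obtained with RMA (background correction, quantile normalization and probe summary), per the submitters' processing notes; its version and settings are not given in the sources used here. Each value was used as deposited. The number of arrays, 2 or 3 a group, limits the precision.

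Gene symbols came from the annotation of the platform: 21789 probe sets carry 1 symbol, 1621 several and 12146 none, and 99.6% of Entrez identifiers matched RefSeq. A gene took its probe set of highest mean. Genes above the 40th percentile of an array on at least 3 arrays were tested (14705 of 19938). limma 3.58.1 in R 4.3.3 fitted 11 group means (20 residual degrees of freedom), with contrasts, eBayes and Benjamini-Hochberg adjustment over all genes tested; tests are two-sided and intervals 95%. The fit was tested on simulated data.

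Members and gene lists were chosen with earlier results of these data known. Named were the members past the threshold in a comparison (12 at most by size of change, and the 3 largest where fewer than 3 passed) and up to 4 of each list; further members were named after their values were seen. The 16 lists of pathway genes and markers include pericyte, endothelial, epithelial, cartilage, mesothelial and adipocyte markers: in LPS against saline after air, 0 of 5, 1 of 7, 0 of 8, 0 of 3, 0 of 4 and 0 of 3 tested passed in C57, and 1, 0, 1, 0, 0 and 0 in AKR. Same-numbered samples of compared groups deviated together in no general way (correlations from -0.77 to 0.55, median 0.03, over 30 pairs). Every pair exceeded 0.1 in 2 comparisons. These were saline against room air alone in C57 (0.41, 0.23 and 0.30) and smoke against air with LPS in AKR (0.54 and 0.44). By the rule used this pairs those samples. The main fit used no pairing. Promoters are those of RefSeq for GRCm38.p6; the build of the array annotation is not given in the sources used here.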

Additional observations from a re-analysis of the deposited data

Results flagged for a closer look

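The LPS response after air differed between AKR and C57 by an interaction term for 4 members, in each case lower in AKR. The AKR response minus the C57 response was -0.90 for Col3a1, -0.65 for Col5a2, -0.59 for Col6a1 and -0.79 for Col6a2 on the log2 scale. Col3a1 and Col5a2 passed in opposite directions in the 2 strains, whereas Col6a1 and Col6a2 passed in AKR alone and the interaction is the test of their difference. The arrays of each strain's response lie in 1 array set, so each response is a difference within a set, and whether the sets were normalized apart was not tested. In the same interaction 1.14% of all genes passed, and 0 of 10 fibroblast and 0 of 8 smooth muscle markers did. At that share, lists this short would mostly give 0, so these counts do not tell how cell content differed. The part of these cells in the strain difference was not tested.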

How the results depend on the processing

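Without both doubted C57 arrays the number of members past the threshold was 11 for LPS after air in C57, 12 for LPS after smoke in C57, 1 for smoke with saline in AKR, 3 for smoke with LPS in AKR, 2 for saline against room air alone in AKR and 1 for smoke by LPS in AKR. With the compared groups alone in the fit it was 12 for LPS after air in C57, 9 for LPS after air in AKR, 0 for saline against room air alone in AKR, 2 for AKR against C57 in room air, 2 for strain by LPS and 1 for smoke by LPS in AKR. Leaving out 1 array gave 1 to 7 for LPS after air in C57, 5 to 14 for LPS after air in AKR, 0 to 8 for LPS after smoke in C57 (8 without C57 smoke LPS 3), 7 to 16 for LPS after smoke in AKR, 0 to 3 for smoke with LPS in AKR, 0 to 1 for saline against room air alone in AKR, 0 to 0 for AKR against C57 in room air and 2 to 5 for strain by LPS. For the other comparisons it gave 0 throughout. Counts over all genes with 1 array left out are not given here. No filter on low values, the mean of a gene's probe sets, quantile normalization of all arrays together, centring on the median, and moderation with trend kept every member count within 1.5 times.

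With the replicate number as a block the counts were 7 for LPS after air in C57 and 13 for LPS after air in AKR. They were 16 for LPS after smoke in AKR and 4 for strain by LPS. The count was 0 for saline against room air alone in C57, 1 of the 2 comparisons whose numbers pair the samples. The block changed no call there. The count with the block for the other, smoke with LPS in AKR, is not given here. Against room air alone, chosen after the data were seen, 2 values turned their sign in AKR after air: Eln to 0.13 and Fn1 to -0.35. Quantile normalization moved the share of higher genes among all genes called for LPS after air in C57 from 72.7% of 2316 to 59.7% of 2272; the member split was 7 higher to 0 lower and 6 to 0. Under it Col3a1 did not pass in C57 after air or in the strain difference. Causes were not tested. Counts over all genes moved by over 1.5 times without both doubted arrays for LPS after smoke in C57 (0 to 3048), smoke with saline in AKR (5 to 49), smoke with LPS in AKR (1 to 228), saline against room air alone in C57 (2 to 16) and in AKR (101 to 326), strain by LPS (167 to 402) and smoke by LPS in AKR (0 to 17). With the compared groups alone they were 1485 in place of 2479 for LPS after air in AKR, 1 in place of 5, 0 in place of 1, 32 in place of 2, 0 in place of 101 and 3 in place of 0 for the smoke with saline, smoke with LPS and saline comparisons in AKR, C57 and AKR and the smoke by LPS comparison in that order. Between 2 and 3 arrays a group leave small changes below detection.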
